A study of Mus musculus with 54 samples.

Results

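The alternative pathway of complement was described here through 8 genes, Cfd, Cfb, C3, Cfp, Cfi, C2, C4b and Hc, in the livers of 54 mice on a high-fat diet (HFD). The genes were taken by name from the 20162 rows of the expression table, as Cfd together with its substrates, regulators and counterparts, and the set was chosen by the mean level of Cfd, which was higher at the highest dose of diisononyl phthalate (DINP), a plasticizer, than in control mice. The 8 genes at the highest dose are therefore described without a test, while the lower doses, and other genes at every dose, were tested. All mice were wild-type C57Bl/6J males, fed HFD from 8 weeks of age and given DINP in gelatin pellets for 20 weeks, with placebo pellets for the 14 control mice. The low-dose group received 1.5 (n = 13), the mid-dose group 15 (n = 13) and the high-dose group 150 mg/kg bw/d (n = 14). The mice were single housed, and no group with a standard diet was analysed here, so that all values are those of a fat-fed liver. One sample of the PBS-perfused medial lobe was sequenced per mouse, and p-values therefore measure the spread between mice.

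Complement is a set of plasma proteins that mark and lyse microbes and damaged cells, and most of it is made by hepatocytes. In the alternative pathway, C3 binds factor B (Cfb), and factor D, the serine protease encoded by Cfd and also known as adipsin, cuts the bound factor B to form the C3 convertase. Properdin (Cfp) stabilises this convertase, factor I (Cfi) inactivates its C3b, C2 and C4 form the corresponding convertase of the classical and lectin pathways, and C5 (Hc) is cut next and opens the terminal pathway. Factor D is best known as a product of adipocytes, which makes its transcript in a fat-fed liver of interest.

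The values are scaled TPM, that is, TPM (the share of a transcript in its library per unit of length) rounded to whole numbers and divided by a size factor per sample, and they summed to 747258 to 1076439 per sample. The sequencing depth is not kept in them, so that no counting error can be given. Since the reads are 3′ tags while TPM divides by transcript length, levels of long transcripts such as C3, C4b and Hc may be understated against short ones such as Cfd. The mean correlation of a library with the others of its group was lowest in 3 libraries. These were replicates 7 and 8 at the middle dose (0.915 and 0.935) and replicate 8 of the control mice (0.937). Counts are also given without these 3. The other mid-dose libraries lay between 0.938 and 0.950, and the other control libraries between 0.948 and 0.963. Liver identity was plain: the 11 hepatocyte markers that passed the filter on low values (a mean of at least 1 over all mice, as for 11431 rows) summed to medians of 41162 to 45970 in the 4 groups. In whole tissue, fewer cells of a type and less RNA per cell cannot be told apart.

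The Cfd gene lies on chr10:79890853-79892655 on the plus strand (GRCm38, GENCODE M21). The 250 bases before its start are shown because Cfd is the member with the largest difference and these bases hold its proximal promoter (chr10:79890603-79890852, plus strand, GRCm38.p6, from RefSeq, 57.6% G and C), in lower case throughout since none of the motifs searched matched.
Cfd promoter: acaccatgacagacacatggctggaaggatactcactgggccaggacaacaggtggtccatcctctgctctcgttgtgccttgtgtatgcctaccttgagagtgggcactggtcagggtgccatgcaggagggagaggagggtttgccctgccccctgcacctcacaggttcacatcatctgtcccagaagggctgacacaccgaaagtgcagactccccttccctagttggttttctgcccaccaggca
The motifs searched on both strands were the nuclear receptor half-site AGGTCA (in 14.0% of 32851 promoter windows), CCAAT (33.8%), the C/EBP-like TTGCNNAA (9.56%) and TATAAA (12.4%). Entries were found for 4 of the 8 genes, Cfd, C3, Cfp and Hc. The corresponding window of C3 matched AGGTCA and TTGCNNAA once each, that of Hc matched TATAAA, and that of Cfp matched none. These matches describe letters only. The other genes of the set lie on chr17:57203970-57228136 (C3, minus strand), chr17:34856374-34862518 (Cfb, minus), chr17:34862604-34898265 (C2, minus), chr17:34728380-34743882 (C4b, minus), chr3:129835884-129875332 (Cfi, plus), chrX:20925454-20931555 (Cfp, minus) and chr2:34983331-35061438 (Hc, minus), all protein coding, with values per whole gene.

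Cfd was a low transcript in the control liver and about 5 times as high at the high dose. In control mice it ranged from 0.764 to 11.2 scaled TPM with a median of 4.99. At the high dose the 14 mice ranged from 5.10 to 52.7 with a median of 23.1. Of these 14 mice, 11 were above the highest control mouse and all 14 were above the control median, so that the groups overlapped only at the lower end of the dosed mice. Among all tested rows, 0.0962% had no overlap between these 2 groups, and none of the 8 complement genes was among them. The means were 4.76 ± 2.91 (SD, n = 14) and 24.4 ± 14.6 (SD, n = 14), a ratio of 5.12, and the difference in mean log2(value + 1) was 2.07 (SE 0.439, 95% interval 1.19 to 2.96). In rank, 35.0% of all rows had a higher mean than Cfd in control mice and 13.9% did at the high dose.

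**Figure D1:**
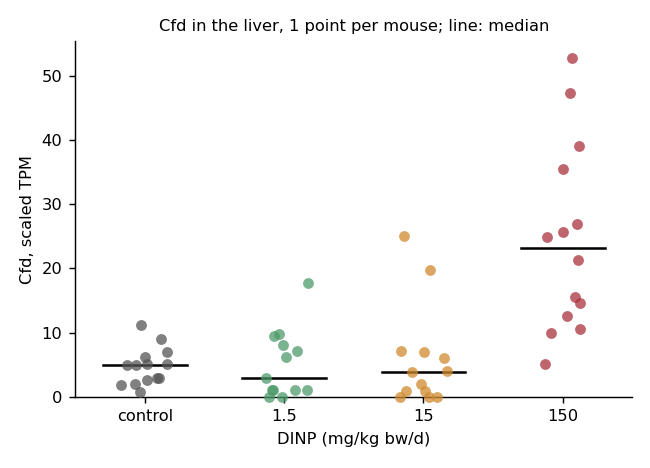
Scaled TPM of Cfd on the vertical axis for each mouse of the 4 dose groups on the horizontal axis, with the median as a line. The 14 mice at the high dose lie between 5.10 and 52.7, while the control mice end at 11.2 and single mice at the low and middle doses reach 17.7 and 25.1.

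At the lower doses Cfd did not pass the test against control, and it varied widely between mice. Low-dose values ran from 0 to 17.7 with a median of 2.94, and 2 of 13 mice were at 0. At the middle dose they ran from 0 to 25.1 with a median of 3.81, and 3 of 13 mice were at 0. Both groups spanned the whole control range, with a lower median than the control mice and a higher mean (5.04 ± 5.31 and 5.90 ± 7.84, SD, n = 13 each). The log2 difference from control was -0.34 at the low dose (SE 0.447, 95% interval -1.24 to 0.56, adjusted p = 0.826) and -0.35 at the middle dose (SE 0.447, -1.24 to 0.55, adjusted p = 0.665), by limma with Benjamini-Hochberg adjustment over all 11431 rows. Between the 2 lower doses it was -0.01 (SE 0.456, adjusted p = 0.993). The spread of Cfd between mice of a group was larger than that of 98.5% of the tested rows (residual SD 1.20 on the log2 scale, against 0.182 for Cfb and 0.182 for Hc).

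Factor B, the protein that factor D cuts, was abundant and varied little between mice. Cfb ranged from 409 to 524 scaled TPM in control mice (median 468). Low-dose mice ranged from 432 to 627 (median 512) and at the middle dose from 306 to 641 (median 480.0). At the high dose it ranged from 345 to 470.4 (median 402). The groups overlapped, with 8 of 14 high-dose mice below the lowest control mouse, 1 above the control median and none above the highest. The log2 difference at the high dose was -0.20 (SE 0.0708, 95% interval -0.34 to -0.06). At the low dose, where 6 of 13 mice exceeded the highest control mouse, the difference of 0.15 (SE 0.0721) did not pass the test (adjusted p = 0.399), nor did 0.06 at the middle dose (adjusted p = 0.652). Cfb lies 85 bases from C2 on the same strand. Both are overlapped on that strand by the gene model Gm20547, which has no row among the values. The assignment of reads between Gm20547 and either gene is therefore uncertain.

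C3, the central component that all pathways cleave, was measured at overlapping levels in the 4 groups and did not pass the test at either lower dose. It ranged from 106 to 168 scaled TPM in control mice (median 132), from 97.5 to 224 at the low dose (median 141) and from 93.2 to 197 at the middle dose (median 161). High-dose mice ranged from 102 to 205 (median 155). All groups overlapped over most of their range. The log2 differences from control were 0.14 (adjusted p = 0.659) and 0.12 (adjusted p = 0.503) at the lower doses, SE 0.109 each, and 0.14 at the high dose (SE 0.107, 95% interval -0.08 to 0.35).

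Properdin, the stabiliser of the convertase, was the other low transcript of the set. Cfp ranged from 4.96 to 16.1 in control mice (median 8.26), from 6.30 to 15.4 at the low dose (median 9.39), from 4.97 to 13.3 at the middle dose (median 8.14) and from 3.88 to 10.3 at the high dose (median 7.43). Of the 14 high-dose mice, 11 were under the control median. The log2 difference was -0.24 (SE 0.139, 95% interval -0.52 to 0.04). At the lower doses it was 0.14 (adjusted p = 0.742) and -0.06 (adjusted p = 0.837), SE 0.142 each.

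Factor I, the protease that inactivates C3b and C4b, was higher at the middle dose than at the dose below it and than in control mice. Cfi ranged from 104 to 162 scaled TPM in control mice (median 115), from 83.3 to 147 at the low dose (median 117) and from 114 to 200.1 at the middle dose (median 147). High-dose mice ranged from 97.0 to 129.8 (median 112). At the middle dose 12 of 13 mice were above the control median and 5 were above the highest control mouse, while no mouse at the high dose was. Cfi rose at the middle dose by a log2FC of 0.34 over control (SE 0.0774, adjusted p = 0.00195) and of 0.38 over the low dose (SE 0.0788, adjusted p = 0.000392). Without the 3 least correlated libraries these became 0.27 (adjusted p = 0.0206) and 0.32 (adjusted p = 0.00304). In limma fits of only the 2 groups compared, the adjusted p was 0.0181 against control and 0.00865 against the low dose. At the low dose the difference from control was -0.04 (adjusted p = 0.885), and at the high dose it was -0.08 (SE 0.0759, 95% interval -0.24 to 0.07).

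C2 and C4b, which take the places of factor B and C3 in the classical and lectin convertase, did not pass the test at either lower dose. C2 ranged from 17.1 to 34.4 in control mice (median 20.0), from 16.1 to 40.7 at the low dose (median 25.0), from 17.1 to 27.6 at the middle dose (median 23.9) and from 14.6 to 26.7 at the high dose (median 20.0). Of the 13 low-dose mice, 12 were above the control median, and the log2 difference was 0.32 (SE 0.0933, adjusted p = 0.0776). Replicate 9 of the control mice, the highest of them, and replicate 9 of the low-dose mice, the lowest of them, each decided this result: over all single mice left out, the adjusted p ranged from 0.0185 to 0.178 and passed the threshold only without one or the other of these 2. At the middle dose the difference in C2 was 0.14 (adjusted p = 0.353), and at the high dose it was -0.05 (SE 0.0916, 95% interval -0.24 to 0.13).

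C4b was the most abundant gene of the set. It ranged from 437 to 796 scaled TPM in control mice (median 650.5), from 479 to 937 at the low dose (median 624), from 509.7 to 1003 at the middle dose (median 718) and from 467 to 783 at the high dose (median 662). The groups overlapped over nearly their whole range, with log2 differences of 0.08 (adjusted p = 0.834), 0.17 (adjusted p = 0.301) and, at the high dose, 0.07 (SE 0.105, 95% interval -0.14 to 0.28). C4b has a near-identical copy, C4a, 65209 bases away on chromosome 17, so that the split of reads between them is uncertain. The sum of C4a and C4b, added after the data were seen, gave 0.09 (adjusted p = 0.782) and 0.19 (adjusted p = 0.232) at the 2 lower doses.

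C5, encoded by Hc, the entry to the terminal pathway, rose slightly at the middle dose. Hc ranged from 15.0 to 21.4 in control mice (median 17.9), from 16.1 to 24.4 at the low dose (median 19.7), from 18.6 to 28.6 at the middle dose (median 21.4) and from 15.4 to 25.7 at the high dose (median 20.9). All 13 mice at the middle dose were above the control median, and 9 of 14 control mice were below the lowest of them. The log2FC was 0.26 (SE 0.0724, adjusted p = 0.00913) at the middle dose and 0.13 (SE 0.0724, adjusted p = 0.483) at the low dose, and the difference between these doses did not pass the test (0.14, adjusted p = 0.180). At the high dose the difference from control was 0.15 (SE 0.0710, 95% interval 0.0049 to 0.29).

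**Figure D2:**
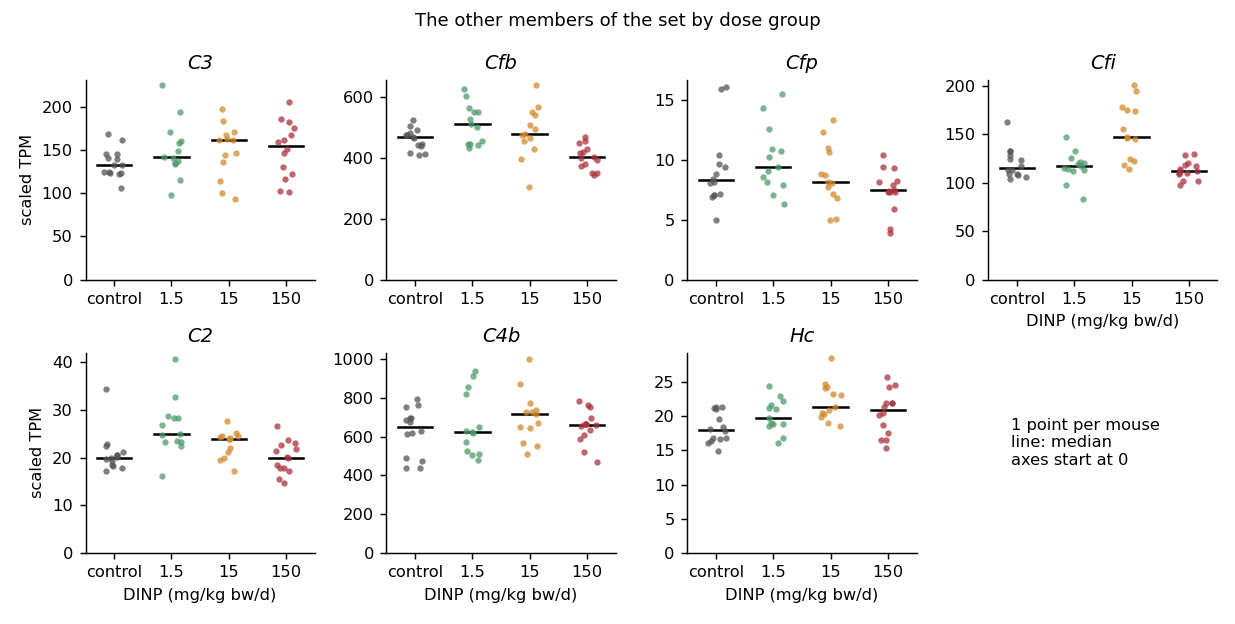
Scaled TPM of the 7 other complement genes on the vertical axes for each mouse of the 4 dose groups, with the median as a line. C3, C4b, Cfi and Hc have their highest medians among the tested doses at the middle dose. Of these, Cfi and Hc passed the test against control there (medians 147 and 21.4). The high-dose mice of Cfb lie between 345 and 470.4.

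In counts, none of the 8 genes was called at the low or middle dose with the threshold for differentially expressed genes (adjusted p under 0.05 and log2FC beyond 0.5), which 0.367% and 3.72% of the tested rows passed, nor between the 2 doses, where 7.15% did. On the adjusted p alone, 0 of 8 passed at the low dose (limma; 2 had an unadjusted p under 0.05, Cfb and C2, and a Wilcoxon rank-sum test also gave 0), beside 1.2% of all rows. At the middle dose 2 of 8 passed, Cfi and Hc, both higher, beside 14.2% of all rows (7.57% higher). Between these doses 1 of 8 passed, Cfi, beside 21.4% of all rows. The shares of the members rest on few genes. The median log2 difference of the 8 genes was 0.13 at the low and 0.13 at the middle dose, against 0.00 for all rows at both doses. At the high dose it was 0.01 against -0.01, with 4 of 8 genes above 0. The 3 comparisons with control share their control mice. None of the counts by the threshold changed without the 3 least correlated libraries.

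**Figure D3:**
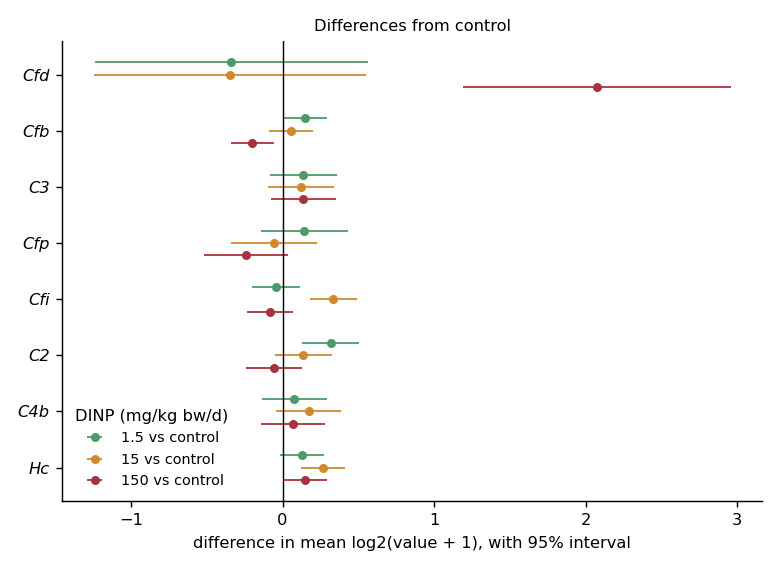
Difference of each dose from control in mean log2(value + 1), with its unadjusted 95% interval, on the horizontal axis for the 8 complement genes. Cfd at the high dose lies at 2.07 with an interval from 1.19 to 2.96, while the differences of the 7 other genes lie between -0.24 and 0.34.

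Set against its partners in the same mouse, Cfd had higher ratios at the high dose than in control mice, as a description of the same contrast. Ratios within a mouse do not depend on the scaling between mice. They do depend on the division by transcript length, and may be overstated for Cfd. Its longest transcript has 922 bases, against 2079 for Cfi, 2641 for C2, 2751 for Cfb and 5136 for C3. Cfd amounted to a median of 1.04% of Cfb in control mice (0.160% to 2.56%) and of 5.51% at the high dose (1.28% to 14.1%). Against C3 the medians were 3.55% and 15.3%, against Cfi 3.85% and 18.6%, and against C2 25.0% and 107%. The lower doses had medians at or below those of the control mice for these 4 genes, from 0.575% of Cfb at the low dose to 16.7% of C2 at the middle dose.

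Over the mice of a group, no correlation of Cfd with another gene of the set passed the test. Where 2 mice were left out below, they were those farthest from the median of the first gene named. Of the 28 correlations of Cfd with another gene of the set in 1 group, Pearson's r ranged from -0.73 to 0.31. A total of 4 had an unadjusted p under 0.05, all negative, with Cfb in control mice and with C3, Cfb and C2 at the low dose, and none passed after adjustment over the 112 pairs tested (2-sided permutation test with 100000 resamples). The largest in size was Cfd with C3 at the low dose (r = -0.73, permutation p = 0.00327, adjusted p = 0.105; rho = -0.82; r = -0.72 without the 2 mice farthest from the median). Among all pairs, only C3 with Cfb at the middle dose passed (r = 0.83, permutation p = 0.00027, adjusted p = 0.0302; rho = 0.77, adjusted p = 0.0946; r = 0.69 without the 2 mice farthest from the median). In the other groups C3 and Cfb gave r = 0.08 in control mice (adjusted p = 0.939), 0.66 at the low dose (adjusted p = 0.207) and 0.62 at the high dose (adjusted p = 0.222). The difference between groups was not tested.

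Since factor D is an adipocyte product, the markers of fat cells were read beside Cfd. The defining markers Adipoq, Lep, Retn, Plin1 and Adig were all at 0 in 12 of 14 control mice, 9 of 13 low-dose, 11 of 13 mid-dose and 12 of 14 high-dose mice, and their sum reached at most 4.08, 5.08, 2.98 and 7.31. In the 12 mice at the high dose with all 5 at 0, Cfd ranged from 5.10 to 52.7 with a median of 18.4. A value of 0 is taken to be a rounded level and does not show that a transcript was absent. Summed over the 9 listed adipocyte genes that were measured, the level ranged from 22.3 to 87.9 in control mice (median 37.1), from 19.2 to 106 at the low dose (median 34.3), from 13.3 to 81.3 at the middle dose (median 34.8) and from 22.0 to 80.7 at the high dose (median 34.7). None of the 4 of them that passed the filter, Fabp4, Cidec, Lipe and Adrb3, passed the test against control at any dose.

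At the low dose, the mean of these 4 genes and Cfd varied together. The correlation was r = 0.85 over 13 mice (permutation p = 0.00033, adjusted p = 0.0178 over 288 correlations of the 8 genes with 9 lists in 4 groups; rho = 0.89; r = 0.86 without the 2 mice farthest from the median). The 2 mice left out here and for the other marker lists were those farthest from the median of the marker mean. In the low-dose group 6 mice had Cfd above the control median and 7 below it. None lay between 2.94 and 6.26, so that the mice stood apart in Cfd. The sums of all values differed as well. Replicates 1, 4, 9, 10 and 13, all with higher Cfd, summed to 849922 to 915170. The mice with lower Cfd summed to 948501 to 1005966, and replicate 7, with higher Cfd, to 977721. Whether the correlations of this group follow this difference between libraries was not tested. Taken singly, Cidec, a lipid droplet protein of fat cells and of fat-laden hepatocytes, gave r = 0.90 and Fabp4, a fatty acid carrier of fat cells that macrophages and endothelium also make, gave 0.78, while Lipe gave -0.33 and Adrb3 -0.11 (described without a test). The mean of the 4 genes gave r = -0.19 in control mice (adjusted p = 0.778), 0.46 at the middle dose (adjusted p = 0.325) and 0.30 at the high dose (adjusted p = 0.556). The difference between groups was not tested.

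**Figure D4:**
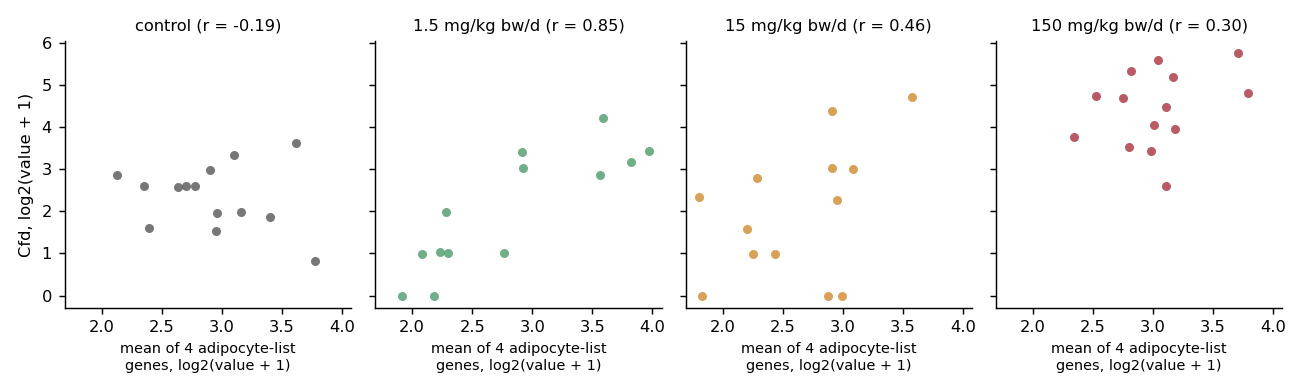
Cfd on the vertical axis against the mean of Fabp4, Cidec, Lipe and Adrb3 on the horizontal axis, both as log2(value + 1), for the mice of each dose group. The 13 mice at the low dose give r = 0.85, and the other 3 groups give r between -0.19 and 0.46.

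Of the 36 correlations of Cfd with a marker list, 2 others passed. Both were at the low dose, where the sums of all values also differed between mice. Cfd ran against the 11 hepatocyte markers (r = -0.80, permutation p = 0.00096, adjusted p = 0.0276; rho = -0.87; r = -0.84 without the 2 mice farthest from the median) and with the 15 acute phase genes (r = 0.82, permutation p = 0.00125, adjusted p = 0.0310; rho = 0.80; r = 0.79). In the other 3 groups r lay between -0.28 and 0.34 for hepatocyte markers and between -0.16 and 0.00 for acute phase genes. At the high dose, where Cfd was high, the summed acute phase level ranged from 4199 to 5358 (median 4837) against 4825 to 7229 in control mice (median 5282), 0 of 15 genes passed the test (limma; beside 2.17% of all rows) and 1 of 15 was above 0 in log2FC. The part of cell composition in Cfd was not tested.

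Properdin, which is made mainly by myeloid cells, followed the macrophage markers. Cfp and the mean of 12 macrophage markers gave r = 0.86 in control mice (permutation p = 0.00056, adjusted p = 0.0202), 0.75 at the low dose (adjusted p = 0.0511), 0.73 at the middle dose (adjusted p = 0.0564) and 0.80 at the high dose (permutation p = 0.00037, adjusted p = 0.0178). The sign was the same in all 4 groups. Spearman's rho was 0.64, 0.69, 0.57 and 0.68, and without the 2 mice farthest from the median r became 0.47, 0.82, 0.68 and 0.67, so that in control mice the size rests on 2 mice. With the 4 markers of lipid-associated macrophages, Cfp gave r = 0.87 in control mice (rho = 0.88, adjusted p = 0.0101) and 0.14 at the middle dose (adjusted p = 0.864). Replicates 8 and 9 of the control mice had the highest Cfp (16.1 and 15.9, against at most 10.4 in the others). C2, which macrophages also make, gave r = 0.80 with the macrophage markers in control mice (rho = 0.78, adjusted p = 0.0429; r = 0.82 without the 2 mice farthest from the median), and between -0.36 and -0.22 in the dose groups, none of which passed. Hc ran against the same markers at the low dose (r = -0.86, rho = -0.87, adjusted p = 0.0101) and gave 0.52 in control mice (adjusted p = 0.218). Among all 288 correlations of the 8 genes with marker lists, 18 passed, 11 of them positive, and not all of these are named.

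In the pattern of their deviations from the group means over all 54 mice, the rows most like Cfd included 4931406C07Rik (r = 0.71), Chpt1 (0.67), Eci1 (0.65), Slc22a15 (0.64), Cd81 (0.64), Rdh16 (0.64), Gpc1 (0.64), Vnn1 (0.63) and Gm32468 (0.63). For comparison, 99% of the tested rows were below 0.45. These values describe likeness of values in the same libraries and carry no test. The likeness was uneven over the groups. For the named rows r was 0.73 to 0.94 at the low dose, where the sums of all values also differed between mice. It was 0.09 to 0.67 in control mice, 0.53 to 0.74 at the middle dose and -0.11 to 0.62 at the high dose. Vnn1, a pantetheinase, had r = 0.92 at the low dose and -0.11 at the high dose. Whether the likeness follows the difference between libraries was not tested. The other genes of the set ranged from 0.15 for C4b to -0.43 for C3. In the wider complement system the highest was Mbl2 (0.43) and the lowest were Clu and C6 (-0.57 each), named here for these values.

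The wider complement system was read from 6 lists with 44 further genes, 33 of which were tested. At the low dose 1 of 33 passed, beside 1.2% of all rows, at the middle dose 4 of 33 (3 higher and 1 lower), beside 14.2%, and at the high dose 2 of 33, both lower, beside 2.17% (0.682% lower). The counts are small, and nothing particular to complement is read from them. Without the 3 least correlated libraries the counts were 1, 3 and 2, with the mid-dose calls of C4a and Masp2 lost and that of Cd59a gained (log2FC 0.26, adjusted p = 0.00361), and without replicate 7 of the mid-dose mice 7 passed at the middle dose. The median log2FC of the 33 genes was 0.06, 0.05 and -0.0011, against 0.00, 0.00 and -0.01 for all rows.

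Among soluble regulators, 1 of 7 rose at the middle dose and 1 fell. Cfhr2 rose from 99.6 ± 24.2 in control mice (SD, n = 14) to 167 ± 68.6 (SD, n = 13). The log2FC was 0.68 (adjusted p = 0.0008), and a limma fit of only these 2 groups gave adjusted p = 0.01125. Reads shared with genes of similar sequence are possible. Cpn1, the catalytic subunit of carboxypeptidase N, which inactivates the anaphylatoxins, fell by 0.30 on the log2 scale, from 177 ± 12.0 to 145 ± 20.9 (adjusted p = 0.000443). In the low- and high-dose mice 0 of 7 passed (limma). The most abundant members of the list, Vtn and Clu, had log2FC of -0.16 and -0.15 at the middle dose (adjusted p = 0.271 and 0.212).

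In the lectin list, Mbl2, a mannose-binding lectin that starts the pathway, fell at the low and the high dose. It was 617 ± 82.0 in control mice, 494 ± 64.6 at the low dose (log2FC -0.32, adjusted p = 0.0326), 574 ± 97.6 at the middle dose (log2FC -0.11, adjusted p = 0.389) and 480.1 ± 59.8 at the high dose (log2FC -0.36, SE 0.0786, adjusted p = 0.00453). The call at the low dose was lost without replicate 1 or 12 of the control mice or replicate 5 or 8 of the dosed mice (adjusted p up to 0.0742), while that at the high dose held without any single mouse (up to 0.0116). Masp2, the protease that cuts C4 and C2, rose at the middle dose (log2FC 0.32, adjusted p = 0.00955), but not without the 3 least correlated libraries (0.23, adjusted p = 0.0571). Mbl1, the second most abundant gene of the list, had log2FC from -0.25 to -0.06 at the 3 doses, none of which passed.

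In the classical list, C1s1, the protease of the C1 complex, fell at the high dose from 79.7 ± 12.5 to 65.2 ± 7.05 (log2FC -0.28, SE 0.0715, adjusted p = 0.0219). C1s1 at the middle dose missed the threshold (log2FC 0.15, adjusted p = 0.170), but passed it without replicate 1 of the control mice (adjusted p = 0.0386). At the middle dose C4a was higher (25.7 ± 5.21 and 38.5 ± 14.0; log2FC 0.52, adjusted p = 0.0403), a call that was lost without any 1 of 10 mice (replicates 5, 9, 11 and 12 of the control mice and 1, 2, 4, 5, 8 and 9 of the dosed mice; adjusted p up to 0.0936) or without the 3 least correlated libraries (adjusted p = 0.0520), and that is uncertain because of the reads it shares with C4b. C1qa, part of the recognition unit of C1 and made by macrophages, had log2FC from -0.34 to -0.13 at the 3 doses and did not pass.

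The remaining lists held no gene that passed against control at any dose. These were the terminal components (0 of 5 tested; C8g at log2FC 0.27, 0.15 and 0.07, and C9 at 0.13, 0.01 and -0.29), the membrane regulators (0 of 4; Cd59a at 0.13, 0.19 and -0.14, and Cr1l at 0.20, 0.11 and 0.04) and the receptors (0 of 4; Vsig4 at -0.10, -0.03 and 0.25, and C3ar1 at 0.17, -0.19 and 0.04). The receptors, which lie mainly on immune cells, were near the lower limit of the values, with a summed median of 9.47 scaled TPM in control mice and 10.5 at the high dose.

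**Figure D5:**
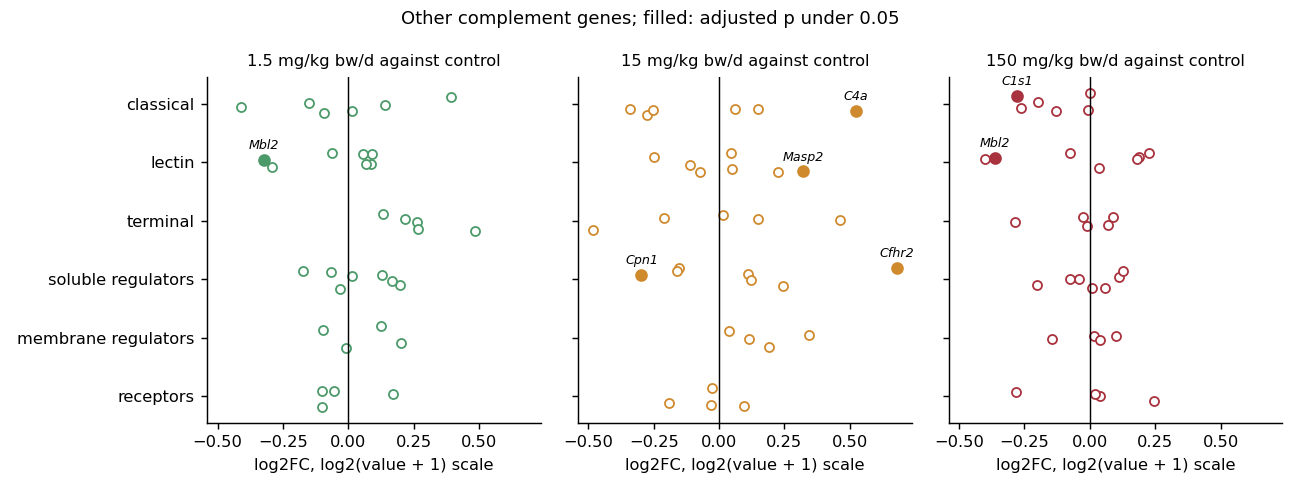
log2FC of each dose against control on the horizontal axis for 33 further complement genes in 6 lists on the vertical axis, filled where the adjusted p was under 0.05. At the middle dose 4 genes are filled, from Cpn1 at -0.30 to Cfhr2 at 0.68, and at the high dose the filled genes are Mbl2 at -0.36 and C1s1 at -0.28.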

How the data were processed

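RNA from 54 livers was sequenced as QuantSeq 3′ libraries, and the authors quantified the reads with nf-core/rnaseq 3.14.0 (STAR, RSEM, Salmon) on GRCm38. The deposited values are a signal: in each sample they were whole multiples of 1 step (0.764 to 1.11, tolerance 0.02), and the whole numbers summed to 948342 to 980641, as TPM rounded and divided by size factors would. No count test was run. Depth is not kept.

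Groups came from the labels. Rows with a mean of at least 1 were tested with limma 3.58.1 (R 4.3.3; trend) on log2(value + 1), 4 groups in 1 fit, with Benjamini-Hochberg adjustment. The fit was tested on simulated data. The members and lists were chosen with earlier results of these data known. Genes named are the members, other complement genes that passed or were the 2 most abundant of their list, and rows among the 10 most like Cfd. A few items are not reported here and were left out of the lists. The alternatives were other pseudocounts (0.1 and 5), filters, scaling, weights, a replicate block, fits of only 2 groups, a Wilcoxon test and left-out mice. Listed symbols without a row were not used here.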

Additional observations from a re-analysis of the deposited data

Results flagged for a closer look

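The 8 genes were read for a difference between the low and middle doses only, where none passed the threshold. Their differences from the high dose, that of Cfd among them, were not put to this rule, since the high dose chose the set. For 3 other complement genes, of 33 tested, a difference between 2 dose groups was itself past the threshold. Between the low and middle doses 1 was higher and 1 lower, beside 7.15% of all rows. No share of all rows is given for the high against the middle dose. Nothing particular to complement is read from these calls. Cfhr2 was higher at the middle than at the low dose (log2FC 0.75, SE 0.147, adjusted p = 0.000192) and below the mid-dose level at the high dose (log2FC -0.67, SE 0.144, adjusted p = 0.000585). C8b, a subunit of the membrane attack complex, was lower at the middle than at the low dose (log2FC -0.96, SE 0.302, adjusted p = 0.0170), with means of 75.1 ± 40.5 and 155 ± 101 (SD, n = 13 each). C4a was below the mid-dose level at the high dose (log2FC -0.53, SE 0.179, adjusted p = 0.0286), with reads that it may share with C4b.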

How the results depend on the processing

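The log2 difference of Cfd at the high dose, whose direction the choice of the set fixed, was 1.48 to 2.34 over the alternatives and 1.96 to 2.21 with each mouse left out. The count of members called was 0 in all 3 tested comparisons whichever mouse was left out. Without the log2FC threshold it was 2 at the middle dose and 1 between the lower doses. C2 at the low dose passed with a minimum mean of 5 (adjusted p = 0.0494) and with array quality weights (0.0120). Members with small differences changed sign: Cfd between the lower doses became 0.029 with a pseudocount of 5, 0.042 with quantile normalization and 0.36 without the 3 least correlated libraries, Cfb at the middle dose became -0.048 with quantile normalization, Cfp at the middle dose became 0.039 with array quality weights, and C3 between the lower doses became 0.066 with weights and 0.016 without the 3 libraries. None of these passed the test. The cause was not tested.

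Of the other complement genes, 0 in place of 1 passed at the low dose without a filter on low values, and 4 in place of 2 passed at the high dose with array quality weights. Leaving out single mice gave 0 to 1, 3 to 7 and 2 to 2 genes at the low, middle and high doses, and the Wilcoxon test gave 2 in place of 4 at the middle dose. C4a at the middle dose also missed the threshold without a filter, with quantile normalization, with array quality weights, by the Wilcoxon test and without the 3 libraries, and Masp2 with the weights, by the Wilcoxon test and without the 3 libraries. The correlation of Cfd with the adipocyte genes changed sign without 2 mice in control mice (0.29) and at the high dose (-0.0076). These 2 were farthest from the median of the mean of the adipocyte genes. Pairs of members that passed numbered 3 with quantile normalization and 0 with Spearman's rho, in place of 1.

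Replicate numbers do not pair the mice: over 79 same-numbered pairs the mean correlation of deviations was -0.0025, and 3 of 54 samples were most like one of their own number. With the replicate number as a block, 0 other complement genes passed at the low dose, and no call of a member changed.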
